A study of Mus musculus with 6 samples.

Results

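Receptors that bind hyaluronan or modified lipoproteins and other waste were compared between 2 groups of sorted lymph node (LN) endothelial cells. The set was chosen by name and holds 10 genes, Lyve1, Stab1, Stab2, Msr1, Marco, Colec12, Mrc1, Cd36, Scarb1 and Scarf1, out of 18193 genes with a probe set of their own. Every probe set that the platform table gives to 1 of these genes alone was taken, which made 19 of the 45037 probe sets that are not controls. The cells came from skin-draining and mesenteric LN of 6-week-old C57BL/6 mice, pooled, freed of CD45+ cells and sorted by gp38, the protein of Pdpn, and by CD31. The 3 double-positive arrays hold RNA of cells with both proteins, and the 3 CD31+ arrays that of cells labelled by CD31 alone, each as replicates 1 to 3. The labels name no transgene or treatment, and their genotype field holds the gate. The labels write LEC beside CD31+ and BEC beside double positive, whereas the paper gates lymphatic endothelial cells (LEC) as gp38+ CD31+ and blood endothelial cells (BEC) as gp38neg CD31+. The arrays are named by the gate here, and by the cell type word every difference below would keep its size and change its sign. Each array averages over LN of several sites and over the subcapsular, cortical and medullary sinuses.

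Hyaluronan is a long sugar chain of the extracellular matrix that is carried by lymph to the LN and removed there and in the liver. Sinus endothelium of both organs is known for receptors that take up hyaluronan, collagen fragments and altered lipoproteins by endocytosis. Scavenger receptors are grouped by structure into classes, among them class A (Msr1, Marco and Colec12), class B (Cd36 and Scarb1), class F (Scarf1) and class H (Stab1 and Stab2), and several of them are better known from macrophages.

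The unit throughout is the log2 value that the authors obtained with GCRMA, for which a difference of 1 is a 2-fold change. Differences were taken as double-positive minus CD31+ means. Values have a floor at 2.39, and 37.4% of probe sets lay within 0.1 of it on all 6 arrays. The share of probe sets at 5 or more was 13.8% to 14.7% in the double-positive arrays, against 10.7% to 12.6% in the CD31+ arrays, and centring the arrays lowers every difference by 0.68. Pdpn had 7.64 ± 0.588 in the double-positive arrays, against 3.58 ± 0.253 in the CD31+ arrays (SD, n = 3 each). Of 9 lymphatic endothelial markers, 6 passed limma as higher in the double-positive arrays and 0 as lower (unadjusted p under 0.05 for 8 and 0), and of 9 blood endothelial markers 0 higher and 6 lower (0 and 8 unadjusted). Prox1, which the paper calls the master regulator of the LEC lineage, did not separate the gates at its brightest probe set. It had 7.50 ± 1.48 in the double-positive and 7.43 ± 0.568 in the CD31+ arrays. Values of any other Prox1 probe set are not given here. In diaphragm and colon, by qPCR, the paper found Prox-1 substantially higher in gp38+ CD31+ than in gp38neg CD31+ cells. The blood marker Plvap had 11.03 ± 0.273 and 11.26 ± 0.478 (SD, n = 3 each). With the replicate number as a block 0 markers of either list passed over all probe sets, and over the bright ones, described next, 8 lymphatic markers passed as higher and 7 blood markers as lower. Of these, Pdpn, Flt4, Reln, Tbx1, Itga9, Fxyd6 and Pard6g stayed below 5 in the CD31+ arrays. Flt1, Cd34, Sox17 and Cxcl12 stayed below 5 in the double-positive arrays. Such genes had to differ to be among the bright ones, so their pass there adds no support. For Pecam1, the gene of CD31, the probe set read 2.39 to 2.59 on all arrays and so does not check the CD31 gate. Tests were made with limma on all 45037 probe sets at 5% FDR, and again on the 6088 probe sets that reached 5 on at least 3 arrays, called the bright probe sets below. With 3 arrays against 3 an exact permutation test cannot give a 2-sided p under 0.1.

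Of the 10 genes, each taken at the probe set of its highest mean level, 8 were higher in every double-positive array than in any CD31+ array and Scarb1 was lower in every one. Groups that do not overlap were seen as higher for 16.9% and as lower for 3.42% of all genes. Limma without the replicate block called 2 of the 10 higher at 5% FDR, Lyve1 and Stab2, and 0 lower, beside 0.879% and 0.176% of all genes. With the block over the same probe sets it called 0 and 0, beside 0.011% and 0% of all genes. Unadjusted p-values under 0.05 were found for 8 higher and 1 lower, beside 12.5% and 2.12% of all genes. Of their 19 probe sets 3 were called, all higher, where 0.502% of all probe sets were called higher and 0.113% lower. The median difference of the 10 was 2.66, against 0.00 over all genes and 0.73 over the 3984 genes with a mean of at least 5. In sorted bulk RNA such a difference does not tell fewer cells with a transcript from less transcript per cell.

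**Figure D1:**
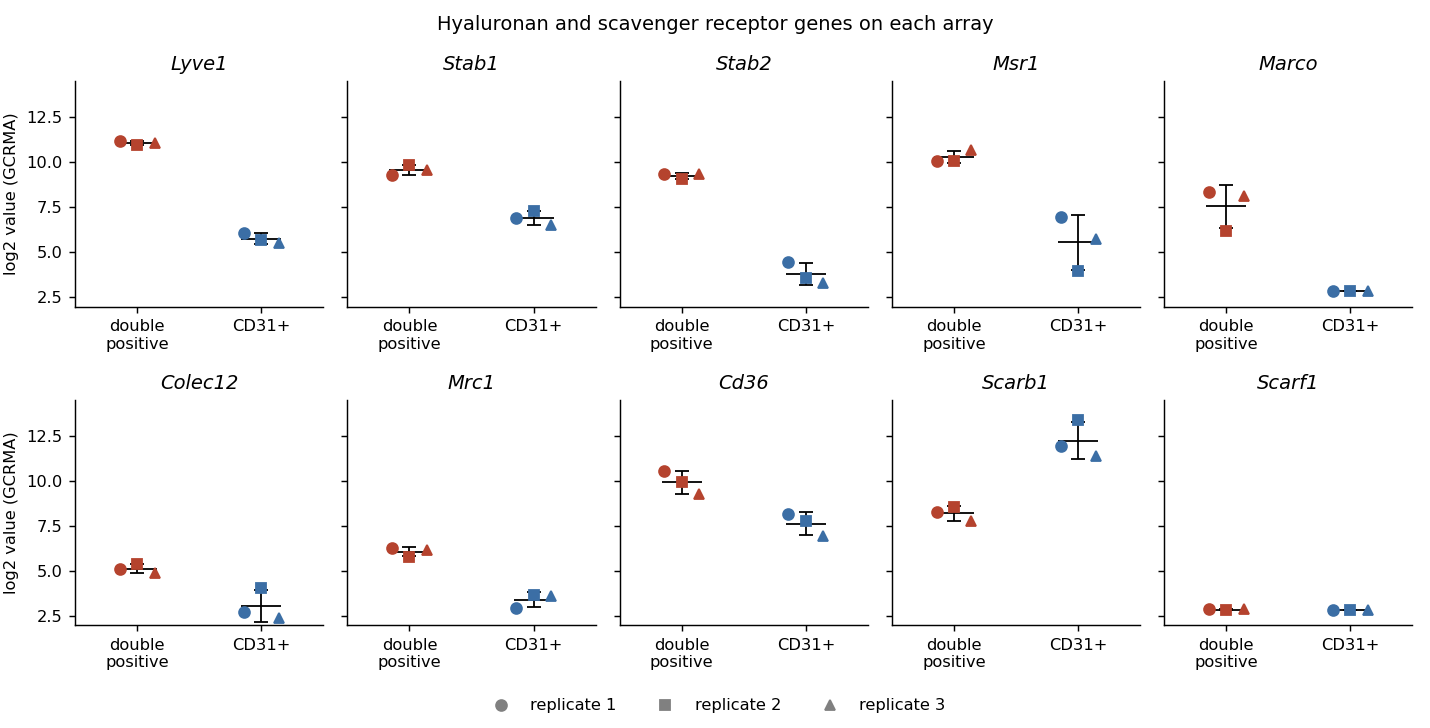
Log2 values (GCRMA) of the 10 genes, each at its brightest probe set, on the double-positive and the CD31+ arrays. Symbols are single arrays by replicate number, and horizontal marks with bars are means and SD (n = 3). Stab2 lies at 9.07 to 9.37 in the double-positive arrays, against 3.31 to 4.47 in the CD31+ arrays, and Scarb1 is the gene that lies lower in the double-positive arrays.

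Lyve1 and Stab2, both receptors of hyaluronan, rose in the double-positive arrays by more than 5 on the log2 scale. Lyve1 encodes a link-domain protein used to stain lymphatic vessels. Lyve1 had log2 values of 11.19, 10.98 and 11.07 in the double-positive arrays, against 6.08, 5.70 and 5.51 in the CD31+ arrays. The lowest double-positive array thus lay 4.89 above the highest CD31+ array. The difference was 5.32 (standard error 0.173, limma adjusted p = 0.0111), or 39.9-fold. Its pairs by replicate number differed by 5.11, 5.27 and 5.57. The other Lyve1 probe set had 7.13, 6.92 and 7.51 in the double-positive arrays, against 3.95, 2.86 and 4.85 in the CD31+ arrays, again without overlap. It differed by 3.30, which missed the threshold over all probe sets (limma adjusted p = 0.149). The call at the brighter probe set held with any 1 array left out (limma adjusted p from 0.0128 to 0.0464), but not with the replicate number as a block (0.109) or without both arrays numbered 2 (0.160).

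Stab2 encodes stabilin-2, the clearance receptor for hyaluronan of liver and LN sinus endothelium, and has 1 probe set. It had 9.34, 9.07 and 9.37 in the double-positive arrays, against 4.47, 3.60 and 3.31 in the CD31+ arrays. All 3 double-positive arrays lay close together, while the CD31+ arrays were spread over more than 1 and low. The difference was 5.47 (standard error 0.348, 95% interval 4.53 to 6.40, limma adjusted p = 0.0259), and was the highest point value of the 10. Without CD31+ replicate 1 it was 5.81 (limma adjusted p = 0.0200), and leaving out any of the other 5 arrays gave 5.22 to 5.56 with adjusted p-values of 0.0652 to 0.124, so the call over all probe sets was lost each time. With the replicate block the limma adjusted p was 0.186 over all probe sets and 4.48e-07 over the bright ones. Stab2 reached 5 in the double-positive arrays alone and so had to differ to be among the bright ones.

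Stab1 encodes stabilin-1, the sister receptor, which takes up SPARC and altered lipoproteins. It had 9.30, 9.84 and 9.58 in the double-positive arrays, against 6.88, 7.32 and 6.53 in the CD31+ arrays. The groups did not overlap, and unlike Stab2 it was above 5 on all arrays of both groups. The difference was 2.66 (95% interval 1.95 to 3.37), which is 6.34-fold. It missed the threshold over all probe sets (limma adjusted p = 0.0521) and passed over the bright ones (0.000416). The intervals of the Stab1 and Stab2 differences do not overlap, though the signal of different probe sets need not follow RNA with the same slope.

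Promoter windows of 5 of the 10 genes were searched for motifs, Stab1, Stab2, Marco, Mrc1 and Cd36. They came from the RefSeq table (GRCm38.p6, 250 bases before to 50 after a start site). Lyve1, Msr1, Scarb1 and Scarf1 had no window there, and Colec12 was left out of the search. The windows of both stabilins and of Cd36 are shown, since these genes were all higher in the double-positive arrays and their windows differ in the motifs they hold. The windows were searched on both strands for MAF (TGCTGA), ETS (GGAAGT), SOX (ACAAT) and AP1 (TGANTCA). The core site of nuclear receptors (AGGTCA) and the TATA box (TATAAA) were searched too, and capitals mark each match on either strand. The windows are chr10:87007893-87008192 for Stab2, chr14:31168592-31168891 for Stab1 and chr5:17835847-17836146 for Cd36, all on the minus strand and written 5′ to 3′ along the gene.
Stab2: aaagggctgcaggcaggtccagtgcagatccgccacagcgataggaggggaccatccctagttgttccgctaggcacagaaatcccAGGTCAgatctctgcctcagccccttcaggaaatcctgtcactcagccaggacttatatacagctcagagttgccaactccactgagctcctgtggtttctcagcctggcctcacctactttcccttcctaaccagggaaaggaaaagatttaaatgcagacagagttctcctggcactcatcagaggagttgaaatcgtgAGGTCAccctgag
Stab1: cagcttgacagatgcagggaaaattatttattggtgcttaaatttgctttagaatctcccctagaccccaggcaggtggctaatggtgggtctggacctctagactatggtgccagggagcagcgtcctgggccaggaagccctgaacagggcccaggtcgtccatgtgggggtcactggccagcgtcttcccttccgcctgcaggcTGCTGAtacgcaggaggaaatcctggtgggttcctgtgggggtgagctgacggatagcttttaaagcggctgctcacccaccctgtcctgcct
Cd36: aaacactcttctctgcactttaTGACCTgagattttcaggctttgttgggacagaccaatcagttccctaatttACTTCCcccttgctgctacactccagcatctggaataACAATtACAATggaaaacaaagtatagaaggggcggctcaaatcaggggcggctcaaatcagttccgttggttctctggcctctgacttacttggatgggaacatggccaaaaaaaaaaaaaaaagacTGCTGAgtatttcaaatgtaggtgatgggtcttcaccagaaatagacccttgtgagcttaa

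Stab2 held 2 matches of AGGTCA, with first bases at -164 and 38 from the start site, and none of the other motifs. Stab1 held 1 match of TGCTGA at -43, and Cd36 held 1 of the same letters at -11 beside 2 of ACAAT, 1 of GGAAGT and 1 of AGGTCA. The Cd36 window lies well inside the gene, which spans 17781690 to 17888959, so its start site is not the outermost one. The window of Marco held none of the 6 motifs and that of Mrc1 held 1 match of GGAAGT. No motif was shared by all 5 windows. Over the 32851 windows searched, 19.5% held TGCTGA, 16.3% AGGTCA, 23.8% GGAAGT, 31.0% ACAAT, 7.81% TGANTCA and 13.6% TATAAA. Single matches are thus common, and a match is not a bound site.

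The class A receptors Msr1, Marco and Colec12 were all higher in every double-positive array at their brightest probe sets. Msr1 encodes the macrophage scavenger receptor of modified LDL. At its brightest probe set it had 10.09, 10.09 and 10.70 in the double-positive arrays, against 6.97, 3.95 and 5.74 in the CD31+ arrays. The CD31+ arrays were spread over 3 on the log2 scale and replicate 2 was the lowest. The difference was 4.74 (standard error 0.860), and limma gave an adjusted p of 0.159 over all probe sets and 0.000903 over the bright ones. Leaving out CD31+ replicate 2 gave 3.94, and leaving out replicate 1 of that gate gave 5.44. A further probe set of Msr1, with 7.45, 7.94 and 8.28 in the double-positive arrays, against 5.05, 4.59 and 4.56 in the CD31+ arrays, was tighter. It rose by 3.16 (standard error 0.276, limma adjusted p = 0.0430). That call was lost with any 1 array left out (0.0947 to 0.137) and with the replicate block (0.275), and held over the bright probe sets with the block (1.95e-05). The other Msr1 probe sets were dim and differed by 0.93 and 0.26 (limma adjusted p = 0.432 and 0.659). Counted at any of its probe sets, Msr1 brings the genes called higher to 3 of 10, where 1.06% of all genes were called higher and 0.225% lower.

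Marco encodes a collagen-like receptor for bacteria and particles, known from macrophages of the splenic marginal zone and the LN medulla. It had 8.36, 6.16 and 8.12 in the double-positive arrays, against 2.88 on each of the 3 CD31+ arrays. The CD31+ values agreed to within 0.01, as they did for 36.9% of all probe sets, so they have no order and the difference is read against a background level. Double-positive replicate 2 was lower than the other arrays of its gate, and the groups were still 3.28 apart. The difference was 4.67 (standard error 0.667, limma adjusted p = 0.1 over all probe sets and 0.000333 over the bright ones). Marco reached 5 in the double-positive arrays alone and so had to differ to be among the bright ones. Without double-positive replicate 2 the difference was 5.36 and passed over all probe sets (limma adjusted p = 0.00842). A second probe set of Marco, which also matches other transcripts by its suffix, lay at 2.51 to 2.54 on all arrays.

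Colec12 encodes a collectin of vascular endothelium that binds oxidized LDL and sugars. Its single probe set had 5.12, 5.38 and 4.89 in the double-positive arrays, against 2.72, 4.04 and 2.39 in the CD31+ arrays. CD31+ replicate 3 was at the floor and replicate 2 was the nearest to the double-positive arrays, at a gap of 0.85. The difference was 2.08 (standard error 0.499, limma adjusted p = 0.266), and the probe set was too dim to be among the bright ones.

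Mrc1, the mannose receptor, binds sugars that end in mannose and takes up glycoproteins and collagen. It is known from macrophages and from lymphatic and hepatic sinus endothelium. Mrc1 had 6.26, 5.78 and 6.14 in the double-positive arrays, against 2.94, 3.68 and 3.61 in the CD31+ arrays. The groups were 2.10 apart. The difference was 2.65 (standard error 0.263, 95% interval 1.95 to 3.36), just outside the threshold over all probe sets (limma adjusted p = 0.0520) and past it over the bright ones (0.000419). With each array left out in turn it ran from 2.42 to 2.79.

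The class B receptors Cd36 and Scarb1, which share a fold with 2 membrane spans and handle lipids, differed in opposite directions. Cd36 takes up long-chain fatty acids and oxidized LDL and binds thrombospondin. At its brightest probe set it had 10.55, 9.92 and 9.26 in the double-positive arrays, against 8.14, 7.77 and 6.91 in the CD31+ arrays. In both groups replicate 1 was the highest and replicate 3 the lowest, and the pairs by number differed by 2.41, 2.15 and 2.35. The difference was 2.30 (standard error 0.498, limma adjusted p = 0.221), or 0.132 with the replicate block. Over the bright probe sets it passed, without the block (limma adjusted p = 0.00460) and with it (7.66e-05). The other Cd36 probe sets differed by 2.33 and 1.70 (limma adjusted p = 0.0720 and 0.407), without overlap. The 1.70 passed over the bright probe sets (0.0186) but not once these were also centred (0.0663). Of 7 measured platelet genes, a cell type rich in Cd36, limma called 0 (2 higher at an unadjusted p under 0.05), and their summed log2 values ran from 26.81 to 28.21 in the double-positive arrays, against 21.56 to 24.28 in the CD31+ arrays. The platelet chemokine gene Pf4 was bright, with 8.50 ± 0.471 in the double-positive arrays, against 7.67 ± 1.04 in the CD31+ arrays (SD, n = 3 each, limma adjusted p = 0.659). Gp9, Gp1bb and Gp6 lay at 2.39 to 2.42 in both groups, while Itga2b and Itgb3 differed by 1.80 and 1.79 (limma adjusted p = 0.144 and 0.131). Their part in the Cd36 values was not tested.

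Scarb1 encodes SR-B1, the receptor of high-density lipoprotein, which carries cholesterol esters into cells and moves lipoproteins across endothelium. It had 8.27, 8.54 and 7.74 in the double-positive arrays, against 11.94, 13.35 and 11.39 in the CD31+ arrays. The groups lay 2.85 apart, and CD31+ replicate 2 was the highest. The difference was -4.05 (standard error 0.603, 95% interval -5.67 to -2.43), so the level was 16.5-fold higher in the CD31+ arrays. A second probe set had 7.17, 7.35 and 6.86 in the double-positive arrays, against 10.89, 12.24 and 10.44 in the CD31+ arrays. The third had 2.83, 2.83 and 2.54 in the double-positive arrays, near the floor, against 5.47, 7.41 and 7.13 in the CD31+ arrays. These differed by -4.07 and -3.94, and the size at the third is limited by the floor. None of the 3 passed over all probe sets (limma adjusted p = 0.109, 0.0857 and 0.109). Both brighter ones, at 5 or more on all arrays, passed over the bright probe sets (0.000480 and 0.000306), with the replicate block too (3.17e-06 and 3.55e-06). The third also passed over all probe sets without CD31+ replicate 1 (-4.54, adjusted p = 0.0278). Both brighter probe sets carry a suffix for probes that can match other transcripts, and the third a suffix for several transcripts of 1 gene. Some markers of fibroblastic reticular cells moved the same way, with summed log2 values of 7 genes at 22.19 to 25.84 in the double-positive arrays, against 29.62 to 38.18 in the CD31+ arrays. Limma called 0 of these 7, with 4 lower before adjustment and 3 lower over the bright probe sets. The 4 were Col3a1 (difference -3.15), Col1a2 (-3.11), Pdgfrb (-2.92) and Pdgfra (-1.41), with limma adjusted p-values of 0.226, 0.174, 0.542 and 0.0590. Of the 3 lower over the bright probe sets, Pdgfrb and Col1a2 were kept through the CD31+ arrays alone. Col1a1 and Lum were near the floor in both groups, each with a mean of 2.39 in the double-positive arrays, against 2.58 in the CD31+ arrays. Dcn had 5.11 ± 0.325 in the double-positive arrays, against 5.43 ± 1.64 in the CD31+ arrays (SD, n = 3 each). The part of such cells in the Scarb1 values was not tested.

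Scarf1, a class F receptor first cloned from endothelial cells, was dim in both groups. It had 2.86, 2.84 and 2.87 in the double-positive arrays and 2.84 on each CD31+ array, so no difference was detectable with this probe set (0.02, limma adjusted p = 0.659).

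**Figure D2:**
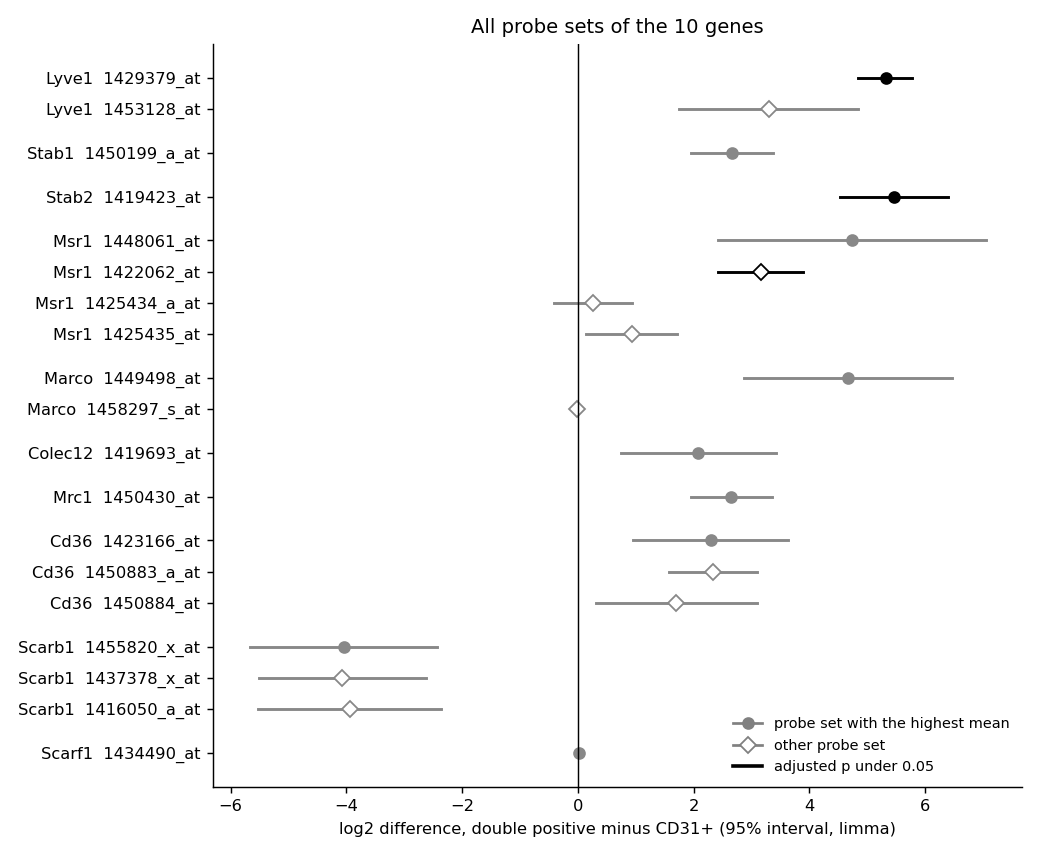
Log2 difference, double-positive minus CD31+ arrays, with its 95% interval from limma without the replicate block for all 19 probe sets of the 10 genes. Filled circles are the probe sets with the highest mean of a gene, open diamonds the others, and black marks those with an adjusted p under 0.05, namely 1 each of Lyve1, Stab2 and Msr1. The 3 probe sets of Scarb1 lie between -4.07 and -3.94.

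Of the 10 genes, 8 had a bright probe set at their brightest, all but Colec12 and Scarf1. Stab2, Marco and Mrc1 were bright in the double-positive arrays alone and so had to differ to be kept, while Lyve1, Stab1, Cd36 and Scarb1 were at 5 or more on all 6 arrays at that probe set. The second Lyve1 probe set was likewise kept through the double-positive arrays alone, and the third of Scarb1 through the CD31+ arrays alone. The limma adjusted p over the bright probe sets was 1.53e-05 for Lyve1 and 2.86e-05 for Stab2. Among the genes on the bright probe sets 33.2% were called higher and 4.11% lower, with the replicate block 46.4% and 4.99%, and with centred arrays 12.6% and 9.63%. After centring, the differences over the bright probe sets were 4.64 for Lyve1, 1.99 for Stab1, 1.62 for Cd36 and -4.73 for Scarb1, all past the threshold (limma adjusted p = 1.27e-06, 0.000648, 0.00592 and 2.15e-05).

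Ordered by difference at the brightest probe set, the genes ran Stab2, Lyve1, Msr1, Marco, Stab1, Mrc1, Cd36, Colec12, Scarf1 and Scarb1. The 95% intervals of neighbours overlapped from Stab2 down to Colec12, so the arrays do not resolve this order between neighbours. The intervals of Stab2 and Lyve1 lay wholly above those of Stab1, Mrc1, Cd36 and Colec12. Colec12 with Scarf1 and Scarf1 with Scarb1 were the neighbours whose intervals were apart. The genes closest to Lyve1 over the 6 arrays, by root mean square difference of values centred on the probe set mean among 3977 candidates with a mean of at least 5, were Lhfp (0.186), Prkar1b (0.279) and Cpe (0.288). For Stab2 they were Lhfp (0.313), Cpe (0.326) and Gdf10 (0.385). With 2 groups of 3 arrays, this likeness mostly ranks genes by the size of their difference.

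**Figure D3:**
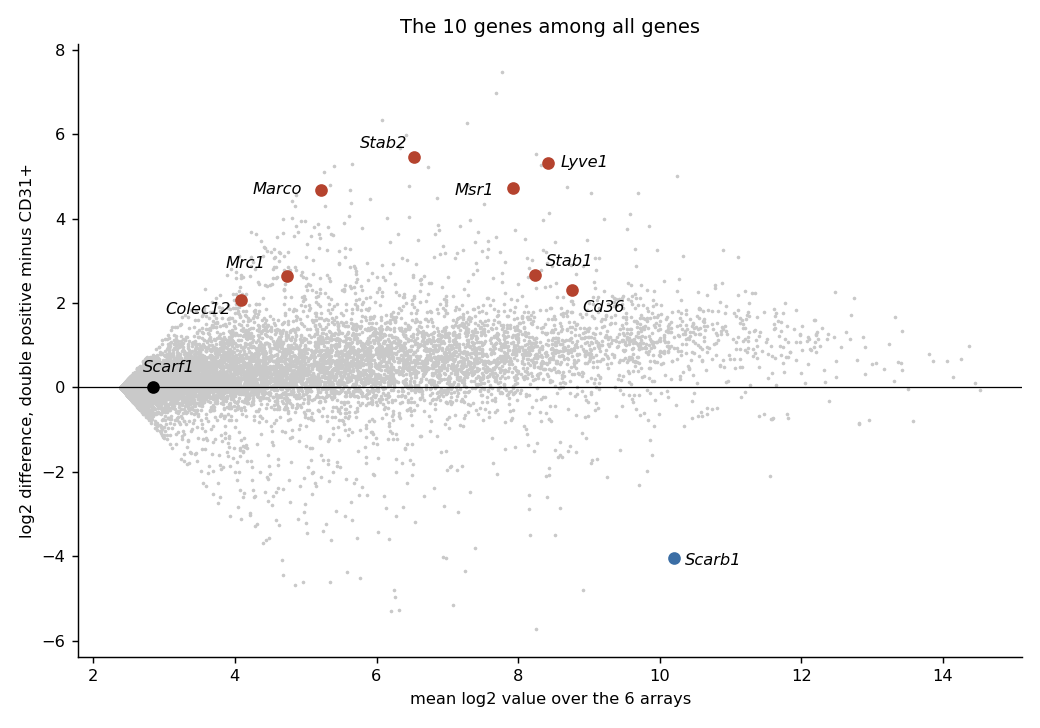
Log2 difference, double-positive minus CD31+ arrays, against the mean log2 value over the 6 arrays. Grey points are all 18193 genes at their brightest probe sets, and the 10 named genes are coloured red where higher and blue where lower in the double-positive arrays, with Scarf1 in black. Stab2, Lyve1, Msr1 and Marco lie between 4.67 and 5.47, and Scarb1 at -4.05.

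Other genes of the hyaluronan system were mostly dim. Of 15 measured, 7 lay below 3 on all 6 arrays, among them the synthases Has1 and Has2, and limma called 1 higher and 0 lower (1 and 2 before adjustment), with a median difference of 0.00. The gene called was Cemip2, which encodes a cell surface protein that helps to break down hyaluronan. Cemip2 had 6.84, 6.63 and 6.44 in the double-positive arrays, against 4.29, 3.97 and 3.63 in the CD31+ arrays, a rise of 2.67 (limma adjusted p = 0.0362). The groups did not overlap, but the call was lost with any 1 array left out (0.0675 to 0.153) and with the block (0.120). Its dimmer probe sets differed by 0.94 and 0.11 (limma adjusted p = 0.0978 and 0.659). Cd44, the widespread hyaluronan receptor, lay at 3.12, 4.41 and 4.33 in the double-positive arrays, against 2.88, 2.76 and 3.12 in the CD31+ arrays at its brightest probe set, so both groups were low and touched. The degrading enzyme Hyal2 had 6.85 ± 0.428 in the double-positive arrays, against 6.37 ± 0.199 in the CD31+ arrays (SD, n = 3 each). Hmmr, the hyaluronan-mediated motility receptor, had 10.26 ± 0.337 and Has3 2.58 ± 0.0668 in the double-positive arrays, against 10.94 ± 0.158 and 3.01 ± 0.223 in the CD31+ arrays (limma adjusted p = 0.400 and 0.397). With centred arrays Hmmr passed over the bright probe sets as lower, at -1.36 (limma adjusted p = 0.00703).

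Of 19 other scavenger and endocytic receptor genes, 0 passed limma in either direction, 4 were higher and 0 lower before adjustment, and the median difference was 0.16. Over the bright probe sets 2 of them passed as higher, Clec4g and Vldlr. With the replicate block 4 did, Scarb2 (limma adjusted p = 0.0373) and Pear1 (0.0390) added, and with centred arrays 1, Clec4g. The 2 with the smallest adjusted p were Clec4g and Cxcl16. Clec4g encodes LSECtin, a lectin of liver and LN sinus endothelium. It had 9.21, 8.88 and 9.17 in the double-positive arrays, against 5.97, 2.88 and 4.96 in the CD31+ arrays. The double-positive arrays lay far above the scattered CD31+ arrays. The difference was 4.48 (limma adjusted p = 0.182 over all probe sets, 0.00134 over the bright ones), and leaving out 1 array gave 3.62 to 5.17. Cxcl16, a membrane chemokine that also binds oxidized LDL, had 4.84 ± 0.371 in the double-positive arrays, against 2.96 ± 0.572 in the CD31+ arrays (SD, n = 3 each, limma adjusted p = 0.192). Scara3, of class A, had 6.14 ± 0.121 and 5.58 ± 0.182, and Scarb2, the lysosomal relative of Cd36, had 9.46 ± 0.837 and 8.56 ± 0.450 in the double-positive and the CD31+ arrays (SD, n = 3 each). The receptors Cd163 and Olr1 lay below 3 in both groups.

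Of 17 ligand and adaptor genes of these receptors, limma called 0 higher and 1 lower (0 and 2 before adjustment), with a median difference of 0.04. The gene that fell was Gulp1, an adaptor that binds the tails of the stabilins and of Lrp1 in the uptake of dying cells. Gulp1 had 2.42, 2.40 and 2.40 in the double-positive arrays, at the floor, against 5.96, 5.07 and 5.29 in the CD31+ arrays. It was lower by 3.04 on the log2 scale (difference -3.04, limma adjusted p = 0.0406), opposite in direction to Stab1 and Stab2. Leaving out 1 array gave -3.22 to -2.78 with limma adjusted p-values of 0.0222 to 0.181, of which only that without CD31+ replicate 1 passed, and the block gave 0.214. Dimmer probe sets of Gulp1 differed by 0.00 and -0.63 (limma adjusted p = 1 and 0.436).

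Markers of macrophages, the cells best known for Msr1, Marco and Mrc1, were mostly near the floor in both groups. Of 22 measured macrophage markers, 15 lay below 3 on all 6 arrays and limma called 0 in either direction (1 higher and 0 lower before adjustment). Their summed log2 values ran from 66.97 to 67.28 in the double-positive arrays, against 65.54 to 68.16 in the CD31+ arrays. Opposite differences cancel in such a sum, here 2.29 for Ctss and -1.05 for Ptprc, so it does not measure the share of macrophages. The defining markers Csf1r, at 2.70 and 2.64, Adgre1, at 2.73 and 2.97, and Itgam, at 2.42 and 2.45 in the double-positive and the CD31+ arrays, were near the floor. C1qc, Siglec1, Cd163, Timd4 and Vsig4 were at the floor of 2.39 in both groups. Ptprc, which encodes CD45, had 2.67 ± 0.121 in the double-positive arrays, against 3.72 ± 0.844 in the CD31+ arrays (SD, n = 3 each). The part of such cells in the Msr1, Marco and Mrc1 values was not tested. Ctss, the lysosomal protease cathepsin S, was the marker that stood out, with 11.08, 10.77 and 11.34 in the double-positive arrays, against 9.05, 8.90 and 8.38 in the CD31+ arrays, a difference of 2.29 (limma adjusted p = 0.0606 over all probe sets, 0.000809 over the bright ones). The phagocyte receptor gene Mertk had 5.79 ± 0.173 and 6.08 ± 0.265 in the double-positive and the CD31+ arrays (SD, n = 3 each). Of 8 measured T and B cell markers limma called 0 (0 at an unadjusted p under 0.05).

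**Figure D4:**
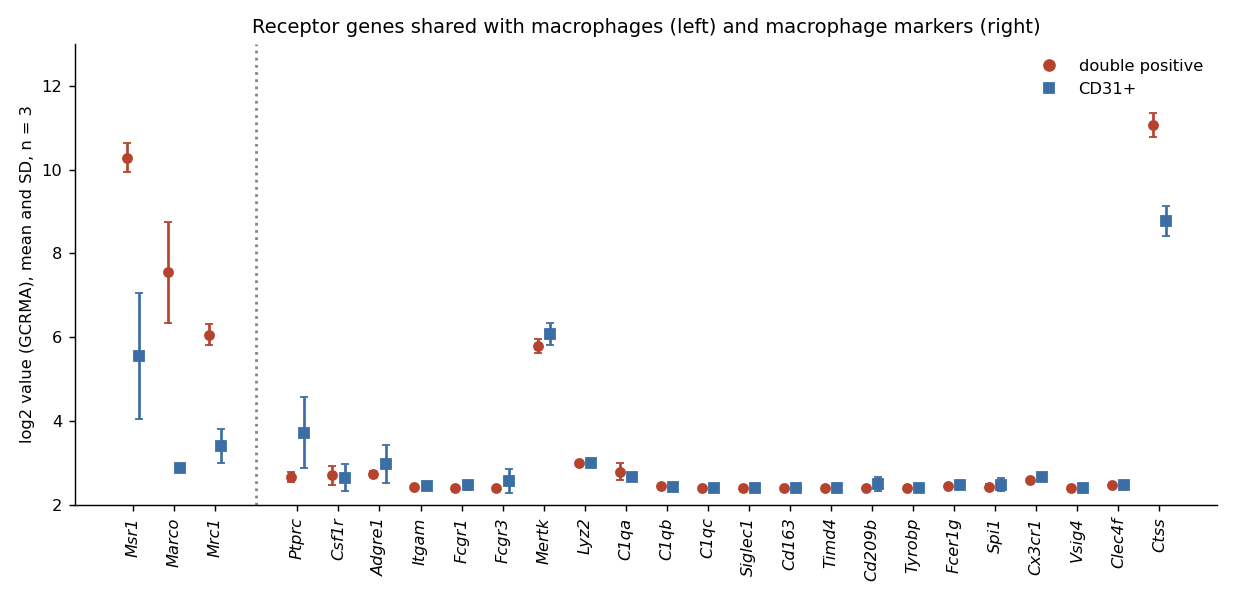
Mean log2 value (GCRMA) and SD of the double-positive and the CD31+ arrays (n = 3 each) for Msr1, Marco and Mrc1, left of the dotted line, and for the 22 macrophage markers, right of it. Apart from Ctss and Mertk, and from Ptprc in the CD31+ arrays, marker means lie near or below 3 in both groups. Levels of different probe sets are not on 1 scale, so each gene is to be read between its own groups.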

How the data were processed

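RNA of sorted LN endothelial cells (20 ng per sample, 2 rounds of linear amplification) was hybridized to 6 GeneChip mouse genome arrays, 3 per gate. The authors checked the arrays by reproducibility plots and normalized them with GCRMA, so the deposited values are log2 RNA abundances. Tool versions were not given in the sources used here. Raw intensities were not used here. Probe sets were named through the platform table and RefSeq identifiers. For the tests, lmFit and eBayes of limma 3.58.1 (R 4.3.3) were run on 45037 probe sets, with no filter and no block, and Benjamini-Hochberg adjustment over all of them at 5% FDR. The procedure was tested on simulated data. The number of arrays limits the precision.

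The replicate numbers pair the arrays. The series text calls the samples paired, and over the 5764 probe sets averaging 5 or more, arrays with the same number deviated together from the means of their gates (r = 0.341, 0.475 and 0.418), while r for other pairs was -0.405 to 0.0566. Values with the block are given where they change a call of the genes and lists described. Alternatives were the block, a filter on dim probe sets, centring, eBayes with trend and robust, array weights, averaged probe sets, left-out arrays and other thresholds.

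All 10 genes were named. Of the other lists, called genes or the 2 with the smallest adjusted p were named by rule, and further genes after their values were seen. The members and lists were chosen with earlier results of these data known. Promoters are those of RefSeq (GRCm38.p6). Figures were drawn with matplotlib 3.10.9. Listed genes without a probe set of their own were not analysed here.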

Additional observations from a re-analysis of the deposited data

How the results depend on the processing

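Over the alternatives run, the sign of the difference at the brightest probe set held for 9 of the 10 genes. For most alternatives it had to hold, so this adds no support. The block, the filter and the eBayes options leave the difference itself unchanged. The groups of these 9 genes do not overlap, so leaving out or weighting arrays cannot turn its sign. Scarf1 differed by -0.66 with centred arrays, where all values moved by 0.68. Of the 10 genes 2 were called higher and 0 lower, and of all genes 160 and 32. With the replicate block these counts were 0 and 0 of the 10, and 2 and 0 of all genes. With the filter on dim probe sets, which tests 4207 genes, they were 7 and 1, and 1398 and 173. With the filter and the replicate block they were 7 and 1, and 1950 and 210, and with the filter and centring 7 and 1, and 530 and 405. Stab2, Marco and Mrc1, among the 7 each time, passed the filter through the double-positive arrays alone. Centring without the filter gave 8 and 2, and 1310 and 12217, since flat probe sets at the floor take on the shift of the arrays. Array weights called 4 of the 10 higher and 0 lower, with Stab1 (limma adjusted p = 0.0462) and Mrc1 (0.0440) added, and 149 and 35 of all genes. Probe sets averaged per gene gave 5 higher and 1 lower, and 407 and 83 of all genes. Leaving out 1 array gave 1 to 2 of the 10 higher and 0 lower, with 31 to 66 and 4 to 34 of all genes. Without both arrays numbered 2 the counts were 0 and 0, and 16 and 6. At 1% FDR they were 0 and 0, and 3 and 1. A minimum difference of 1, and eBayes with trend and robust, left the counts of the 10 at 2 and 0. Of all genes the minimum difference gave 153 and 32, and trend and robust 107 and 28. The cause of the changes with the filter and the block was not tested. The floor and the number of arrays limit what can be seen for Scarf1 and Colec12.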

Other observations

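Some lipid carriers and ligands of these receptors were bright in both groups, and these genes were picked after their values were seen. Fabp4 and Fabp5, which carry fatty acids inside endothelial cells, had log2 values of 10.99 ± 0.132 and 11.41 ± 0.204 in the double-positive arrays, against 10.87 ± 0.136 and 10.93 ± 1.24 in the CD31+ arrays (SD, n = 3 each). Sparc, a matrix ligand of stabilin-1, had 8.19 ± 0.226 in the double-positive arrays, against 8.46 ± 0.0342 in the CD31+ arrays (SD, n = 3 each). Snx17, a sorting adaptor of endosomes, had 9.74 ± 0.492 in the double-positive and 9.12 ± 0.545 in the CD31+ arrays (SD, n = 3 each). None of these 4 passed limma over all probe sets (adjusted p = 0.659, 0.798, 0.659 and 0.659), and Sparc passed as lower over the bright probe sets once arrays were centred (-0.94, limma adjusted p = 0.0378). Mfge8, a secreted bridge between dying cells and phagocytes, had 8.83 ± 0.241 in the double-positive arrays, against 10.81 ± 0.891 in the CD31+ arrays, a difference of -1.98 that passed over the bright probe sets (limma adjusted p = 0.00986) and not over all (0.306).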
